A study of Mus musculus with 12 samples.

Results

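The receptors described here are 9 G protein-coupled receptors that myeloid cells use to sense chemoattractants and metabolites, namely Gpr84, Gpr65, C3ar1, C5ar1, Fpr1, Fpr2, Ccr1, P2ry6 and Ptafr. They were chosen by name, and their probes were found through the RefSeq identifier that the arrays give for each probe. All 9 genes were found among 20887 named genes, each with 1 probe of the 55681 on the array, and 6 of them had a probe that entered the tests. The probes of Gpr65 and P2ry6 were printed as 10 spots on each array and the other 7 as 1 spot.

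Receptors of this family span the membrane of the cell and pass a signal to heterotrimeric G proteins when a ligand binds outside. C3ar1 and C5ar1 bind the complement fragments C3a and C5a. Fpr1 and Fpr2 bind formylated peptides from bacteria and mitochondria, and Fpr2 also binds lipid and protein ligands such as annexin A1 and serum amyloid A. Ccr1 is a receptor of chemokines such as Ccl3 and Ccl5, and Ptafr is the receptor of platelet-activating factor. Gpr84 responds to medium-chain fatty acids, Gpr65 to extracellular protons and P2ry6 to the nucleotide UDP. In the brain they are mainly known from microglia and from infiltrating blood leukocytes, where most of them guide migration and P2ry6 promotes phagocytosis.

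Differentiated neurospheres, which are aggregates of neural progenitor cells left to mature, were compared on 12 2-color Agilent expression arrays. WT neurospheres and neurospheres with the APPswe/PS1dE9 transgenes, a mouse model of Alzheimer's disease, came from the telencephalon of embryos at day 13. The transgenic neurospheres were untreated (APP_WT), treated with 1 µM bradykinin (BK_APP) or treated with 1 µM HOE-140 (HOE_APP) on days 0, 3 and 6 of differentiation, and RNA was taken on day 7. Each array held both conditions of 1 of 3 comparisons (APP_WT versus WT, BK_APP versus APP_WT, HOE_APP versus APP_WT), with 4 replicates each and the dyes swapped between replicates 1 and 2 and replicates 3 and 4. WT neurospheres received neither agent, every treated neurosphere carried the transgenes, and no treated WT neurospheres were analysed here. The transgenes of these mice are driven by the prion protein promoter. How many embryos stood behind a replicate is not given in the sources used here. The p-values and intervals from limma measure the spread between arrays with the same dye layout, pooled over the 12 arrays. They leave out the difference between the dye layouts, which the SD printed beside them holds. For HOE_APP, channel 1 and channel 2 carry 1 and the same treatment in the labels, so that every direction given for HOE_APP is likely only. The log2 ratios that the authors deposited for these arrays run in the direction used here. They correlated at r = 0.999 to 1 with the ratios of the scanner software turned to that direction.

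The arrays of APP_WT versus WT lay on 1 slide and the 8 arrays of treated neurospheres on another, so that slide and comparison cannot be told apart, while each ratio was measured within an array. After ratios were turned to the same direction, arrays of opposite dye orientation correlated at r = 0.114 to 0.248 in APP_WT versus WT, −0.28 to −0.158 in BK_APP versus APP_WT and −0.326 to −0.237 in HOE_APP versus APP_WT, over all probes of the array. Arrays of the same orientation correlated at 0.302 to 0.535, 0.229 to 0.238 and 0.338 to 0.346. The model held a dye term for each comparison. Mouse App had a log2 ratio of 0.12 ± 0.15 (SD, n = 4) between APP_WT and WT (adjusted p = 0.0925 in limma), and whether its probe reads the transgene is not known. Prnp, whose promoter drives the transgenes, had 0.75 ± 0.57 (SD, n = 4, adjusted p = 0.00581 in limma). Bradykinin has a high affinity for the B2 kinin receptor, which Bdkrb2 encodes. Neither Bdkrb2 nor the other kinin receptor gene, Bdkrb1, was well above background on any array in either channel.

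WT neurospheres gave next to no signal for these receptors. A spot was called well above background by the flag of the scanner software, and a probe with 10 spots where at least 5 of them had the flag. In WT, no receptor had the flag on at least 3 of 4 arrays, and C3ar1 had it on 1 array, replicate 4. Over all probes of the array, 45.2% had the flag on at least 3 of the 4 WT channels. In APP_WT on the same arrays, Gpr84 and P2ry6 had the flag on 4 of 4 arrays, Fpr1 on 3, Gpr65 and C3ar1 on 2, and C5ar1 and Fpr2 on 1. Over the 12 arrays that held APP_WT, the flag was set on 12 for Gpr84 and P2ry6, 11 for Fpr1, 8 for Gpr65 and C3ar1, 3 for C5ar1 and 2 for Fpr2. Ccr1 and Ptafr were not well above background on any array in any condition. More arrays with the flag in APP_WT than in WT were found for 7 of the 9 receptors and for 14.4% of all 55681 probes. On these 4 arrays, Gpr65 and C3ar1 had the flag in APP_WT on replicates 3 and 4, where APP_WT was labeled with Cy5, and not on replicates 1 and 2, where it was labeled with Cy3. On the arrays of treated neurospheres both had the flag in APP_WT with either dye.

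**Figure D1:**
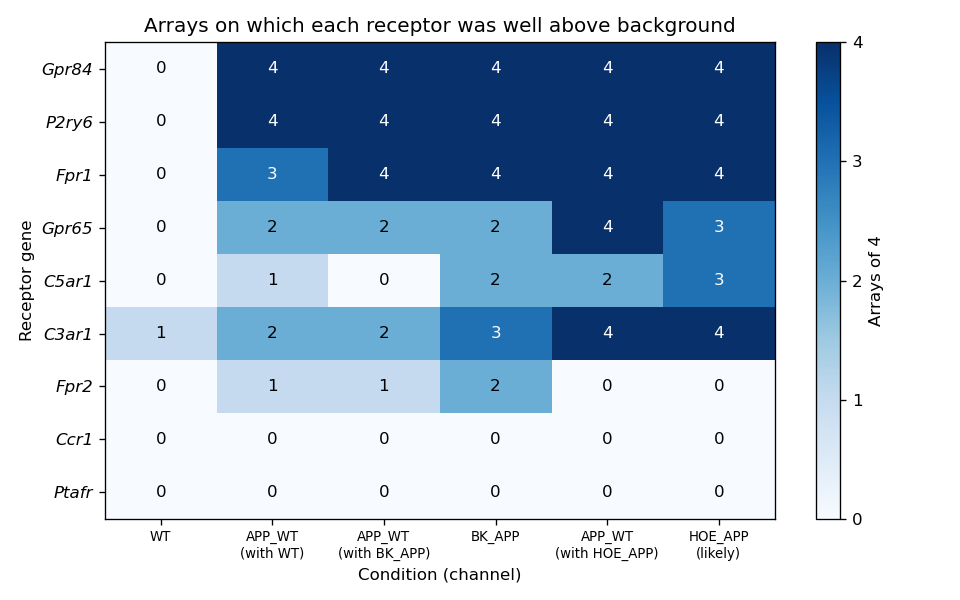
Number of arrays (of 4) on which the probe of each receptor (rows) was well above background, by condition (columns), with APP_WT given for each of the 3 comparisons it entered. The WT column holds 0 for every receptor but C3ar1, while Gpr84 and P2ry6 reach 4 in every transgenic condition.

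The 300 bases around the annotated start of a gene (250 before and 50 after) were taken from RefSeq for the mouse build GRCm38.p6, which held 8 of the 9 receptors. P2ry6 had no entry. They were searched on both strands for GAGGAA, a core that the myeloid factor PU.1 is known to bind, for the interferon-stimulated response element GAAANNGAAA and for the NF-kappaB consensus. GAGGAA was found for Gpr65 (48 bases before the start), Fpr2 (19 before), Ccr1 (129 before) and Ptafr (242 before), which is 4 of 8 receptors, beside 28.3% of 32851 promoters of the same length. The response element was found for 0 of 8, beside 3.44% of all, and the NF-kappaB consensus for Ccr1 alone (74 before), beside 8.46% of all. None of these matches overlapped another. Gpr84 had the largest ratio between APP_WT and WT and no match to any of the 3 motifs. Gpr65 alone among the tested receptors with an entry had a match to GAGGAA, and Ccr1 was not detected. Promoters are shown for these 3 receptors. They lie at chr15:103310389-103310688 (minus strand), chr12:98268385-98268684 (plus strand) and chr9:123968643-123968942 (minus strand), and are written 5′ to 3′ on the strand of the gene with GAGGAA or its reverse complement in capitals.
Gpr84: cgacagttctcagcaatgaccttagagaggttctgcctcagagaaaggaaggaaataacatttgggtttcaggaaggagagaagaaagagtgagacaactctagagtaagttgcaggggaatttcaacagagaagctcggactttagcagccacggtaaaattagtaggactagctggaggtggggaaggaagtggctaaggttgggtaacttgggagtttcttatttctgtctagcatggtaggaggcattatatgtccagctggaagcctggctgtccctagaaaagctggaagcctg
Gpr65: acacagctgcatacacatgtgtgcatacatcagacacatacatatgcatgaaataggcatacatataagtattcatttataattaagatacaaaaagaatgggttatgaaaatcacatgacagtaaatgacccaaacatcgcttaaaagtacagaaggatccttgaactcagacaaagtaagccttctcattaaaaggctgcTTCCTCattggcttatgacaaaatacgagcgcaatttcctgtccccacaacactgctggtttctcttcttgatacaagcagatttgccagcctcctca
Ccr1: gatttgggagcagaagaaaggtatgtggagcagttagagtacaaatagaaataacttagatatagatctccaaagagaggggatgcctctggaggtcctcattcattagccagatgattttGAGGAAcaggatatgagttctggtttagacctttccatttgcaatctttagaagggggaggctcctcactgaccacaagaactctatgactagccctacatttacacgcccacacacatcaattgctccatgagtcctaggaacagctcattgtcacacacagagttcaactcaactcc
These letters describe the windows only, and no binding was measured.

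Gpr84, the receptor of medium-chain fatty acids, was far above its WT level in untreated APP_WT neurospheres. Its median spot intensity in the APP_WT channel was 237, 274, 586 and 603 on replicates 1 to 4 over local backgrounds of 21, 29, 38 and 38. In the WT channel it was 55.5, 63.5, 55 and 54 over backgrounds of 34, 38, 27 and 24. After normalization its log2 level was 8.29, 8.21, 8.90 and 8.76 in APP_WT and 6.11, 6.04, 6.51 and 6.43 in WT. Every APP_WT level lay above every WT level, and within each condition replicates 3 and 4 were the higher ones. The log2 ratio was 2.18, 2.17, 2.39 and 2.34, with a mean of 2.27 ± 0.11 (SD, n = 4) and an adjusted p of 2.14e-08 in limma. WT intensities lay above their local background on each array, but without the flag on any of the 4, so that the difference is given as at least 4.82-fold higher. Here and for all receptors, fewer cells of a type and less RNA per cell cannot be told apart in these bulk samples.

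P2ry6, the UDP receptor, had log2 levels of 7.41, 6.88, 7.22 and 7.29 in APP_WT and 6.32, 6.05, 6.30 and 6.22 in WT. The levels did not overlap. The flag was set on 10, 7, 10 and 10 of its 10 spots in APP_WT and on 3, 0, 0 and 0 in WT. The log2 ratios were 1.10, 0.83, 0.92 and 1.07, with a mean of 0.98 ± 0.12 (SD, n = 4, adjusted p = 2.63e-06 in limma), which is at least 1.93-fold higher. Across the 10 spots of an array the SD of the ratio was 0.33 on replicate 1 and 0.09 to 0.13 on the other 3, and the lowest of all these spots had 0.64.

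The formyl peptide receptor Fpr1 had log2 levels of 6.79, 6.81, 6.97 and 7.48 in APP_WT and 6.20, 6.20, 6.50 and 6.73 in WT. All APP_WT levels lay above all WT levels, with replicate 4 the highest in both. Its log2 ratio was 0.61 ± 0.12 (SD, n = 4, adjusted p = 5.21e-05 in limma), with 0.59, 0.61, 0.47 and 0.75 on the 4 arrays. The difference is given as at least 1.52-fold, which equals the fold as measured and is no confidence limit. Its paralog Fpr2 was not tested, and its ratios were 0.15, 0.15, 0.39 and 0.54, with levels of 6.24 to 6.63 in APP_WT and 5.95 to 6.16 in WT. Fpr2 was well above background in APP_WT only on replicate 4, the array with the largest of these ratios. The probe sequences were not analysed here, so that reading of one paralog by the probe of the other was not tested.

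Of the complement receptors, C5ar1 had log2 levels of 6.40, 6.35, 6.62 and 6.68 in APP_WT and 5.98, 6.02, 6.12 and 6.02 in WT. The levels did not overlap, although the flag was set in APP_WT on replicate 4 only. Its log2 ratios were 0.42, 0.33, 0.51 and 0.66, with a mean of 0.48 ± 0.14 (SD, n = 4, adjusted p = 0.00247 in limma). This is 1.39-fold as measured, and no lower bound is given because APP_WT was mostly without the flag as well. C3ar1 had 6.33, 6.40, 6.74 and 7.38 in APP_WT and 6.15, 6.21, 6.39 and 6.89 in WT. APP_WT was higher than WT on each array, but the levels of the 4 arrays overlapped between the conditions. Its log2 ratios were 0.19, 0.20, 0.35 and 0.49, with a mean of 0.31 ± 0.14 (SD, n = 4, adjusted p = 0.00211 in limma). This call was lost (adjusted p = 0.0759 in limma) when the comparison was fitted alone and without a dye term, and held with either change by itself (adjusted p = 0.0376 alone with a dye term and 0.0219 in the 12-array model without one). The ratio of C3ar1 was 0.42 with APP_WT in Cy5 and 0.19 with APP_WT in Cy3 (means of 2 arrays each).

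The proton-sensing receptor Gpr65 had the smallest spread of the receptors tested. Its log2 levels were 6.52, 6.54, 6.70 and 6.67 in APP_WT and 6.06, 6.08, 6.27 and 6.19 in WT, without overlap. Its log2 ratios were 0.45, 0.46, 0.43 and 0.47, with a mean of 0.45 ± 0.02 (SD, n = 4, adjusted p = 5.75e-05 in limma). This is 1.37-fold as measured, and no lower bound is given because APP_WT had the flag on only 2 of the 4 arrays. The 10 spots of its probe had an SD of 0.11 to 0.18 within an array, and the lowest spot of the 4 arrays had 0.23.

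Ccr1 and Ptafr gave no difference that could be read. The chemokine receptor Ccr1 had log2 ratios of 0.24, 0.16, −0.11 and −0.18, positive with APP_WT in Cy3 and negative with APP_WT in Cy5. Ptafr had 0.03, −0.02, −0.24 and 0.00. Both probes were at background in both conditions, and neither was tested.

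**Figure D2:**
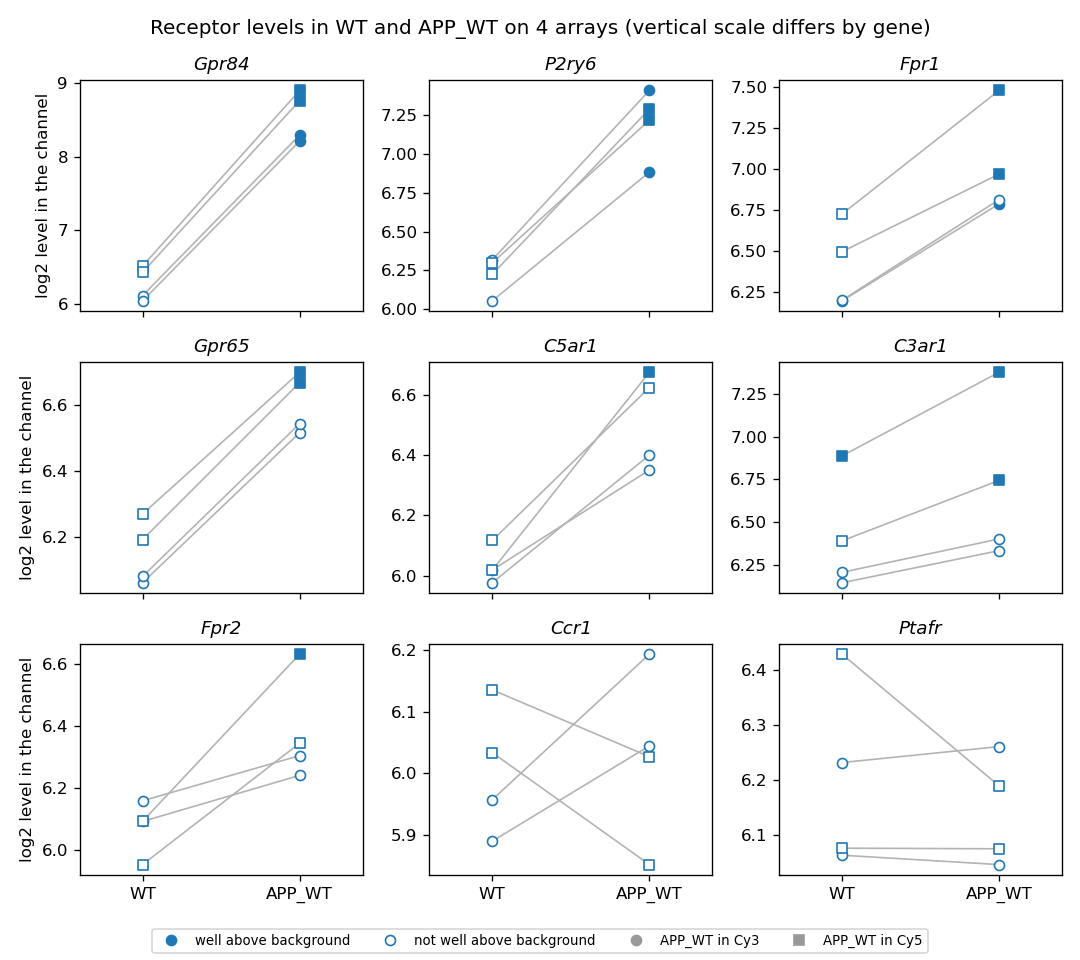
log2 level of each receptor in the WT and APP_WT channels of the 4 arrays (a line joins the channels of 1 array, symbols give the dye of APP_WT, filled symbols are well above background, and the vertical scale differs by gene). All 4 lines rise for Gpr84, P2ry6, Fpr1, Gpr65, C5ar1, C3ar1 and Fpr2, and those of Ccr1 cross by dye.

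All 6 receptors that were tested were higher in APP_WT than in WT, between 0.31 and 2.27 on the log2 scale, beside 11.6% of the 29361 expressed probes called higher and 7% called lower. Of the 6, all but C3ar1 had levels without overlap, beside 6.72% of probes with all APP_WT levels above all WT levels. These counts are a description, because these probes entered the tests without WT being detected on more than 1 array. Without the filter on dim probes the same 6 of 9 receptors were called, beside 5.22% of 55681 probes called higher. Fpr2 then had an unadjusted p of 0.00524 and an adjusted p of 0.0619 in limma, Ccr1 an adjusted p of 0.86 and Ptafr of 0.639. SAM with rank products, which the methods name, called the same 6 receptors and 12% of expressed probes. The size of the ratios depended on how the dim WT signal was handled. The offset of 50 added to every intensity draws ratios of dim probes toward 0, and with an offset of 10, Gpr84 had 3.15, P2ry6 1.64, Fpr1 0.98, Gpr65 0.88, C5ar1 1.02 and C3ar1 0.53. The processed signals of the scanner software, which hold no offset, gave 4.95 for Gpr84, 2.94 for P2ry6, 1.93 for Fpr1, 1.69 for Gpr65, 1.65 for C5ar1 and 0.93 for C3ar1.

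Markers of microglia and macrophages moved with the receptors. Of 20 such genes 16 were expressed. Of these, 14 were higher and 0 lower in APP_WT than in WT, beside 11.6% and 7% of all expressed probes. This count is a description, because 9 of the 16 entered the tests without WT being well above background on 3 arrays. The 16 genes had a median log2 ratio of 1.49, beside 0.00 over all expressed probes. The largest ratios were those of the fractalkine receptor Cx3cr1 (2.31 ± 0.15), the adaptor Tyrobp (2.22 ± 0.21), the calcium-binding protein Aif1 (2.21 ± 0.17, SD, n = 4 for each) and the complement component C1qa (2.07, with a missing value on an array). Of the markers with a probe, 7 of 19 were well above background on at least 3 of 4 arrays in WT and 15 of 19 in APP_WT, and the sum of their linear levels was 22800 to 30200 in WT and 27900 to 37200 in APP_WT. Such a sum follows the brightest probes, whose share was not determined. Itgam (0.11 ± 0.34, adjusted p = 0.427 in limma) and Siglech (0.05 ± 0.32, adjusted p = 0.771, SD, n = 4 for each) were not called, with the flag on 4 of 4 arrays in both conditions. P2ry12, Spi1 and Mrc1 were at 0 arrays in WT and at most 1 in APP_WT. The ratio of Gpr84 lay above the median of the 16 markers on each of the 4 arrays, by 0.79 ± 0.23 (SD, n = 4). The ratios of the other 5 tested receptors lay below it with an offset of 50, by −0.50 ± 0.14 for P2ry6, −0.87 ± 0.20 for Fpr1, −1.0 ± 0.24 for C5ar1, −1.03 ± 0.15 for Gpr65 and −1.18 ± 0.27 for C3ar1. The 6 receptors and 9 of the 16 markers were well above background on fewer than 3 of 4 arrays in WT, so that the offset draws in both the receptor ratios and the median, and this order is no order of true folds. With the processed signals, a check chosen after seeing the data, the median was 2.50, Gpr84 lay above it by 2.45 ± 0.48 and P2ry6 above it on 4 of 4 arrays, by 0.44 ± 0.18, while Fpr1 and C5ar1 lay above it on 1 array and Gpr65 and C3ar1 on 0. The part of the marker genes in the receptor ratios was not tested.

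**Figure D3:**
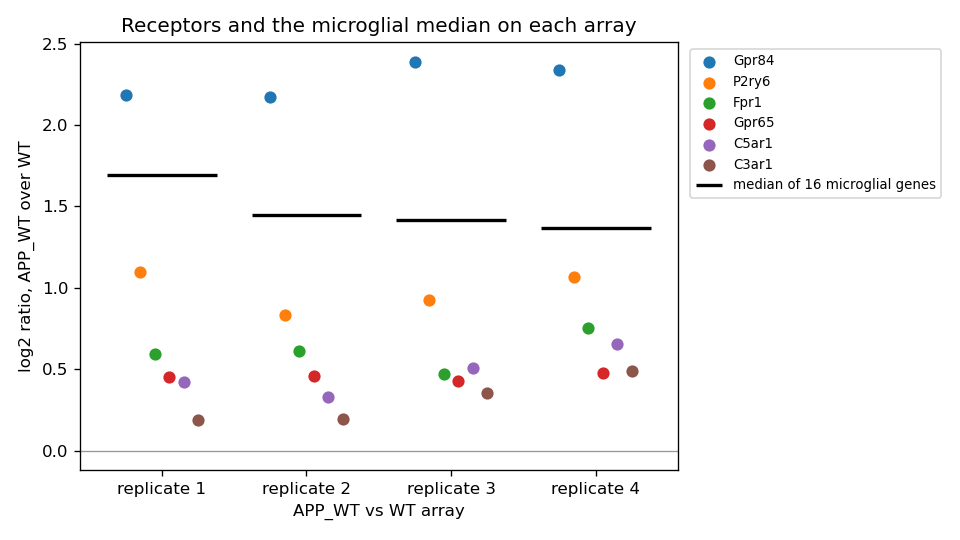
log2 ratio of APP_WT over WT for the 6 tested receptors (points) and the median of 16 microglial genes (bars) on each of the 4 arrays. With an offset of 50, which draws in ratios of dim probes, Gpr84 lies above the bar on every array and the other 5 receptors below it, and P2ry6 changes sides with the processed signals.

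Markers of other leukocytes were read in the same way. Of 11 neutrophil markers with a probe, 3 were expressed (Elane, Csf3r and Camp, on 4 of 4 arrays in both conditions), and S100a9, Ngp, Ltf, Retnlg and Cxcr2 were at 0 of 12 arrays in APP_WT and 0 of 4 in WT. The sum of the neutrophil markers was 26200 to 29800 in WT and 23500 to 39000 in APP_WT, of which these 3 made up 97.8% to 98.1% and 97.5% to 98.6%, and only Camp passed the test (0.20 ± 0.23, SD, n = 4, adjusted p = 0.0385 in limma). None of 4 monocyte markers with a probe was expressed, with a sum of 280 to 387 in WT and 291 to 377 in APP_WT. Of 5 lymphocyte markers 2 were expressed and 0 were called (unadjusted p below 0.05 for 0 as well), with sums of 1420 to 1770 and 1390 to 1800. Over all expressed probes, 11.6% were called higher and 7% lower. Of 6 astrocyte genes 5 were higher and 0 lower, of 6 neuronal genes 1 was higher and 2 lower, of 6 oligodendrocyte lineage genes 1 was lower, and of 3 expressed endothelial and pericyte genes 1 was lower. Their sums in WT and APP_WT were 47600 to 55500 and 67900 to 80000 for astrocytes, 61700 to 76000 and 55800 to 67900 for neurons, 48800 to 66100 and 58000 to 65600 for the oligodendrocyte lineage, and 2830 to 3860 and 3110 to 3780 for endothelial cells and pericytes.

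RNA was measured for genes of ligands of these receptors and of enzymes that make or degrade them, while the ligands themselves were not measured. Of 18 such genes 16 were expressed, with a median log2 ratio of 0.36. Of these, 9 were higher and 2 lower in APP_WT than in WT, beside 11.6% and 7% of all expressed probes. This count is a description as well. Several of the higher genes, including Ccl3, Ccl5, Saa3 and Anxa1, entered the tests without WT being well above background on 3 arrays. C3, the source of the C3ar1 ligand C3a, had 4.17 ± 0.37 and the Ccr1 ligand Ccl3 had 2.26 ± 0.29. Ccl5, another Ccr1 ligand, had 2.15 ± 0.29, and the Fpr2 ligand Saa3, which was not well above background in WT, had 1.68 ± 0.40 (SD, n = 4 for each). Adjusted p-values in limma were 5.44e-08, 1.29e-07, 1.18e-06 and 9.89e-05. Hc, which encodes the precursor of C5a, had 0.78 ± 0.39 and Anxa1 0.52 ± 0.14, both called. The lower ones were Pafah1b2 (−0.32 ± 0.09), a subunit of an enzyme that degrades platelet-activating factor, and the channel Panx1 (−0.26 ± 0.09), which releases nucleotides.

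Most other myeloid G protein-coupled receptors did not pass the filter on dim probes. Of 26 on the list 8 were expressed, 10 had the flag on some arrays only and 8 on none. Of the expressed ones, beside 11.6% of all expressed probes called higher and 7% lower, 3 were higher and 0 lower in APP_WT, with a median of 0.10. Among them were Cx3cr1 (2.31 ± 0.15) and the nucleotide receptor P2ry2 (0.44 ± 0.19, SD, n = 4 for each). Both entered the tests without WT being well above background on 3 arrays, so that this count is a description. Gpr132, Gpr34, Cxcr2, P2ry14, Hcar2, Ffar2 and Adora3 were at 0 arrays in every condition. Of 22 genes of signaling and desensitization downstream of the receptors, 16 were expressed. Of these, 6 were higher and 2 lower, beside 11.6% and 7% of all expressed probes, with a median of 0.09. The leukocyte GTPase Rac2 had 1.12 ± 0.19, the phosphoinositide 3-kinase subunit Pik3r5 0.31 ± 0.07, the G protein subunit Gnai2 0.30 ± 0.16 and the subunit Gng2 −0.29 ± 0.08 (SD, n = 4 for each). Rac2 and Pik3r5 also entered the tests without WT being well above background on 3 arrays. The arrestins Arrb1 and Arrb2 were called higher at 0.24 and 0.21, and the receptor kinase Grk6 lower at −0.16.

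Whether bradykinin moved the receptors was read from the 4 arrays of BK_APP versus APP_WT, with APP_WT neurospheres as the control here and in the comparison with HOE_APP. No receptor was called by limma after adjustment, and neither was any of the 29361 expressed probes (0% called). At an unadjusted p under 0.05, 2 of 6 receptors were higher and 0 lower, beside 2.1% of probes higher and 2.36% lower. Fpr1 was higher in BK_APP on each of the 4 arrays. Its log2 levels were 7.21, 7.25, 7.33 and 7.78 in BK_APP and 6.90, 7.16, 6.88 and 7.41 in APP_WT, which overlap between the conditions. The log2 ratios were 0.30, 0.10, 0.45 and 0.37, with a mean of 0.31 ± 0.15 (SD, n = 4), a 95% interval of 0.18 to 0.44, an unadjusted p of 0.000344 and an adjusted p of 0.967 in limma. Ratios above 0 on all 4 arrays were found for 5.1% of probes. SAM with rank products called Fpr1 alone among the receptors, and 1.82% of expressed probes.

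Gpr84 had log2 levels of 9.19, 9.45, 8.84 and 8.47 in BK_APP and 8.52, 9.01, 8.83 and 8.72 in APP_WT. Its log2 ratios of 0.68, 0.44, 0.01 and −0.26 split by dye, with a mean of 0.56 for BK_APP in Cy5 and −0.12 for BK_APP in Cy3. The mean over both dyes was 0.22 ± 0.42 (SD, n = 4). In limma its unadjusted p was 0.00827 and its adjusted p 0.967. The standard error from limma was 0.067, because the dye term takes up this split. The permutation test of SAM, which has no dye term, gave p = 0.18 and rank products p = 0.00123, so that the pair of them did not call it. P2ry6 had 0.17, 0.09, 0.18 and −0.07 (mean 0.09 ± 0.11). Gpr65 had −0.08, 0.01, 0.18 and 0.12 (mean 0.06 ± 0.12). C5ar1 had 0.12, −0.16, 0.19 and −0.02 (mean 0.03 ± 0.15), and C3ar1 had 0.08, 0.13, −0.02 and −0.11 (mean 0.02 ± 0.11, SD, n = 4 for each). None of these 4 differed from 0 by more than its spread between arrays. On the same arrays the microglial median was 0.18, 0.13, 0.13 and 0.01, and Fpr1 lay above it by 0.19 ± 0.18 and Gpr84 by 0.10 ± 0.36 (SD, n = 4 for each). The part of the microglial genes in these ratios was not tested.

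Fpr2 stood apart on 1 array. Its log2 level on the BK_APP arrays was 6.49, 6.67, 6.39 and 7.68 in BK_APP and 6.35, 6.58, 6.37 and 8.25 in APP_WT, so that both channels were bright on replicate 4. The spot intensity there was 168 in BK_APP and 422 in APP_WT, beside 62 to 103 and 49 to 71.5 on the other 3 arrays. The probe has 1 spot per array, and on the HOE_APP arrays its level was 6.07 to 6.34 in HOE_APP and 6.09 to 6.47 in APP_WT. The log2 ratio on replicate 4 was −0.58, beside 0.02 to 0.14 on the other 3 arrays. Ccr1 had −0.20 and −0.29 with BK_APP in Cy5 and 0.18 and 0.10 with BK_APP in Cy3, and Ptafr −0.12, −0.17, 0.37 and 0.16, without detection.

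HOE-140 is a peptide analog of bradykinin with an added D-arginine and several exchanged residues, and it blocks the B2 kinin receptor that bradykinin activates. On the HOE_APP arrays, whose direction is likely only, no receptor and none of the 29361 probes was called after adjustment in limma (0% called). At an unadjusted p under 0.05, 1 of 6 receptors was lower and 0 higher, beside 2.72% of probes lower and 2.31% higher. That receptor was Gpr84. Its log2 levels were 8.47, 8.90, 8.67 and 8.31 in HOE_APP and 8.50, 8.99, 8.90 and 8.85 in APP_WT, and they overlap between the conditions. Its log2 ratios were −0.03, −0.09, −0.23 and −0.53, below 0 on 4 of 4 arrays, as for 5% of probes. The mean was −0.22 ± 0.22 (SD, n = 4), with an interval of −0.37 to −0.08 (unadjusted p = 0.00697 and adjusted p = 0.924 in limma). The ratio averaged −0.06 with HOE_APP in Cy5 and −0.38 with HOE_APP in Cy3. SAM with rank products called Gpr84 alone among the receptors, and 2.3% of expressed probes.

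The other receptors lay near 0 in HOE_APP. Gpr65 had log2 ratios of −0.23, −0.19, 0.10 and 0.01 (mean −0.08 ± 0.16), negative with HOE_APP in Cy5 and positive with HOE_APP in Cy3. P2ry6 had −0.13, −0.10, 0.05 and −0.12 (mean −0.08 ± 0.08). C3ar1 had 0.06, 0.21, −0.31 and −0.13 (mean −0.04 ± 0.23), C5ar1 −0.04, 0.06, 0.33 and −0.20 (mean 0.04 ± 0.22) and Fpr1 −0.03, 0.01, 0.14 and 0.01 (mean 0.03 ± 0.07, SD, n = 4 for each). The microglial median on these arrays was −0.18, −0.11, −0.03 and −0.09. The ratios of the untested receptors were −0.01, 0.04, −0.03 and −0.33 for Fpr2, −0.29, −0.43, 0.09 and 0.32 for Ccr1, and −0.01, 0.02, −0.06 and −0.10 for Ptafr. Those of Ccr1 again followed the dye.

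**Figure D4:**
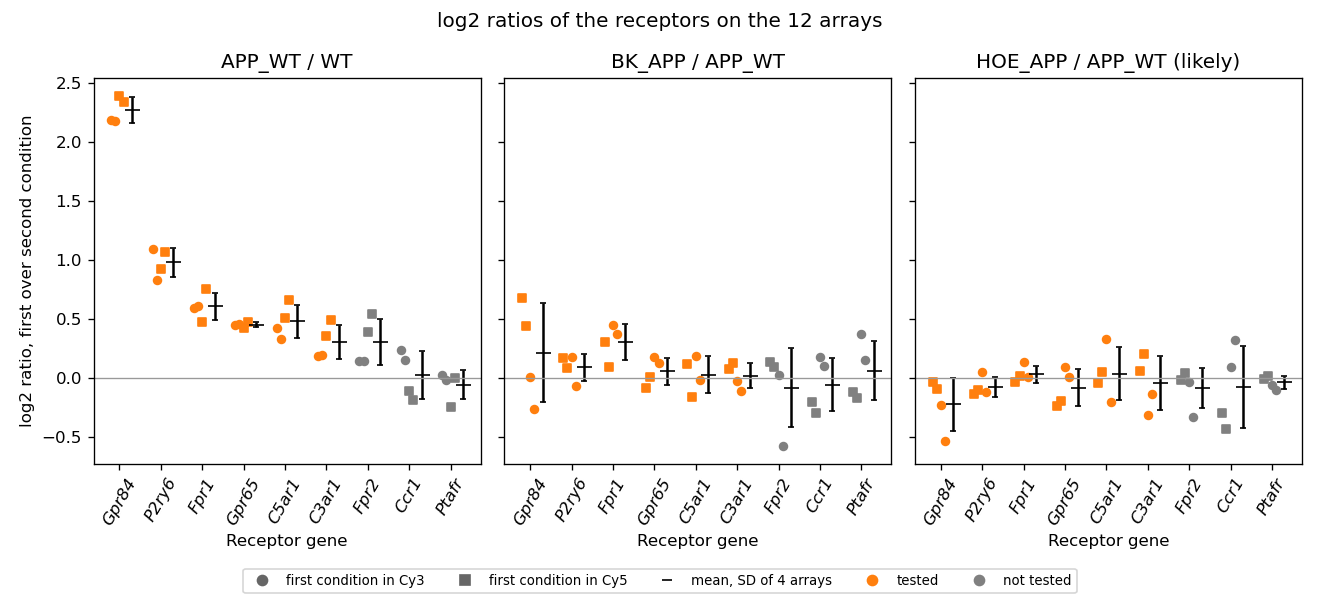
log2 ratios of the 9 receptors on the 4 arrays of each comparison (points, with the dye of the first-named condition given by the symbol) with their mean and SD (n = 4), for receptors that were tested (orange) or not (gray). The 6 tested receptors lie above 0 on every APP_WT versus WT array, and under treatment only Fpr1 with BK_APP (all above 0) and Gpr84 with HOE_APP (all below 0) keep 1 side among the tested ones.

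Bradykinin and HOE-140 were given at the same dose on the same days, and their difference was tested as BK_APP minus HOE_APP in the same model. None of the 6 receptors and none of all expressed probes was called after adjustment (0% called), and at an unadjusted p under 0.05 the difference was above 0 for 2 receptors and below 0 for 0, beside 1.2% and 1.29% of probes. Gpr84 differed by 0.44 (95% interval 0.23 to 0.65, unadjusted p = 0.000782 and adjusted p = 1 in limma). Fpr1 differed by 0.27 (0.09 to 0.46, unadjusted p = 0.00795, adjusted p = 1). For P2ry6 the difference was 0.17 (−0.03 to 0.36), for Gpr65 0.14 (−0.002 to 0.28), for C3ar1 0.06 (−0.10 to 0.23) and for C5ar1 −0.01 (−0.27 to 0.25). These intervals do not show that the compounds act alike on the receptors. All 16 expressed microglial genes had a difference above 0, with a median of 0.21 beside −0.0025 over all expressed probes, and 0 of them were called. The share of all probes above 0 was not counted. These genes were read on the same arrays, so that they are no independent readings. Had the direction of the HOE_APP arrays been the opposite one, the difference would be −0.01 for Gpr84, and 7 of the 16 microglial genes would lie above 0 and 9 below, with a median of −0.01.

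The lists around the receptors held no called gene in any of these comparisons of treated neurospheres. At an unadjusted p under 0.05 the ligands counted 3 of 16 genes in BK_APP, 6 in HOE_APP and 7 in the difference, beside 4.47%, 5.03% and 2.5% of probes. C3 had log2 fold changes of 0.24 ± 0.33 with bradykinin and −0.56 ± 0.30 with HOE-140 (unadjusted p = 0.109 and 0.00223 in limma). It was thus not among the genes counted in BK_APP. Ccl3, a ligand of Ccr1, had 0.26 ± 0.36 and −0.21 ± 0.19 (unadjusted p = 0.0142 and 0.0375 in limma, SD, n = 4 for each). The other myeloid receptors counted 1 of 8 in each of the 3, and the signaling genes 1, 2 and 1 of 16.

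Set in order by condition, the mean level of Gpr84 was 6.27 ± 0.23 in WT, 8.54 ± 0.34 in APP_WT beside WT, 8.59 ± 0.26 in HOE_APP, 8.77 ± 0.21 and 8.81 ± 0.22 in APP_WT beside BK_APP and HOE_APP, and 8.99 ± 0.43 in BK_APP (SD, n = 4 for each). WT stood apart, and the transgenic conditions did not differ from their neighbors beyond their spread. P2ry6 went from 6.22 ± 0.12 in WT to between 7.20 ± 0.23 (APP_WT beside WT) and 7.35 ± 0.06 (BK_APP) in the others. Fpr1 went from 6.40 ± 0.26 in WT over 7.01 ± 0.32 in APP_WT beside WT to 7.39 ± 0.26 in BK_APP. Gpr65 had 6.15 ± 0.10 in WT and between 6.61 ± 0.09 and 6.79 ± 0.08 in the others, both read as APP_WT, and C5ar1 had 6.03 ± 0.06 and between 6.51 ± 0.16 and 6.63 ± 0.15. C3ar1 went from 6.41 ± 0.34 in WT to 6.71 ± 0.48 in APP_WT beside WT and 7.11 ± 0.27 in APP_WT beside HOE_APP, and its neighbors in this order all overlapped. With the HOE_APP arrays read in the opposite direction, their channels would trade places, so that HOE_APP would hold the 8.81 of Gpr84, the 6.79 of Gpr65 and the 7.11 of C3ar1. Levels set across the comparisons come from different slides, and levels of different probes are not compared.

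For each tested receptor the 3 named genes with the most similar log2 ratios over the 12 arrays were sought among 14145 genes, as a description with no test. For Gpr84 these were Ccl3 and Ephx1 (r = 0.992 each) and Ifit3 (0.99). P2ry6 was nearest to Togaram2, Aif1 and C1qc (0.992 each), of which Aif1 and C1qc are on the microglial list. Gpr65 was nearest to Msn (0.987), Cd72 (0.98) and Tnip1 (0.975), Fpr1 to Sox9 (0.971), Pnp (0.964) and Trim47 (0.957), C5ar1 to D630039A03Rik (0.954), Apbb1ip (0.947) and Arhgap25 (0.943), and C3ar1 to Pttg1 (0.952), B4galt1 (0.948) and Slc1a3 (0.945). The 12 points fall into the 4 arrays with WT and the 8 without, and they share arrays and dyes. Over the 8 arrays without WT alone, r for these 18 pairs ran from 0.794 (C5ar1 with Apbb1ip) to 0.982 (P2ry6 with Aif1). The pairs were picked over 12 arrays that include these 8, so that this range is no check of the likeness.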

How the data were processed

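The authors deposited scanner output with the median intensity of spots and backgrounds in both channels, spot flags, processed signals and their log10 ratio. The authors also deposited log2 ratios of each array, used as an alternative only. The array design is on an older build than the RefSeq table used for gene names. Under R 4.3.3, limma 3.58.1 corrected median intensities by normexp (offset 50) and normalized them by loess (span 0.3), control and uneven spots aside. Spots of a probe were averaged and ratios put as treated over untreated. Channel levels were scaled by Aquantile. Probes well above background in 1 condition on at least 3 of 4 arrays of a comparison (29361) were fitted in 1 limma model over 12 arrays, with a mean and a dye term per comparison (6 residual and 4.56 prior degrees of freedom), and adjusted by Benjamini-Hochberg at 0.05. Intervals are 95% intervals from this model. A fold "at least" is given where APP_WT had the flag on at least 3 of 4 arrays and WT on none. It sets the mean APP_WT level against, on each array, the higher of the WT level and the lowest WT level well above background. It is no confidence limit, and for Gpr84 and Fpr1 it equals the measured fold. Each p without another name is two-sided and from limma. SAM and rank products were programmed anew, with an unadjusted p of at most 0.05 in both. In simulated data for APP_WT versus WT, this fit recovered 79.1% of changes of 0.5 and 97% of changes of 1 on the log2 scale over 28900 probes. For changes of 0.25 and 0.5 it recovered 23.9% and 76.1% in BK_APP, 19.4% and 76.1% in HOE_APP, and 1.49% and 50.7% in their difference. The simulations changed 66 or 67 probes at each size and drew noise independently for each array. In the data 5446 probes were called in APP_WT versus WT, and residuals correlated between arrays, so that these shares may not hold there. Depth does not apply to arrays, and their number limits precision. Genes named are all receptors, from each gene list the 4 with the largest called change in APP_WT versus WT, the genes of the design, and the 3 most similar genes per receptor. Hc, Anxa1, Pafah1b2, Panx1, Arrb1, Arrb2, Grk6, Itgam, Siglech and undetected genes were named after their values were seen. Receptors and gene lists were chosen with earlier results of these data known. Figures were drawn with matplotlib. Values of some genes on the lists are not reported here.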

Additional observations from a re-analysis of the deposited data

Results flagged for a closer look

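Values of 81 groups of 4 (the ratio and both channel levels of 9 receptors in 3 comparisons) were checked for a single value far from the other 3, and 4 were found, where chance alone gives about 1 in 20. The log2 ratio of Fpr2 on BK_APP replicate 4 was −0.58, beside 0.02 to 0.14 on the other arrays. Its log2 level in APP_WT on the same array was 8.25, beside 6.35 to 6.58. The log2 ratio of P2ry6 on HOE_APP replicate 3 was 0.051, beside −0.13 to −0.10 on the other arrays. The log2 level of Ptafr in BK_APP on replicate 3 was 6.70, beside 6.05 to 6.06, without the flag for a signal well above background.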

How the results depend on the processing

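The number of receptors called in APP_WT versus WT stayed within 4 to 6 under every alternative, with 4 in the deposited table of log2 ratios, where 4 receptors could be tested, 5 with detection on all 4 arrays, where 5 were tested, and 5 with each comparison fitted alone and without a dye term. With only 1 of these choices changed it was 6, in fits added after seeing the data. Leaving out each array in turn gave 6 to 6 for APP_WT versus WT, and 0 to 0 for BK_APP versus APP_WT, HOE_APP versus APP_WT and their difference. SAM with rank products called 1 receptor in BK_APP (Fpr1) and 1 in HOE_APP (Gpr84), in place of 0. With the flag on 1 of 4 arrays as the rule, 1 receptor was detected in WT (C3ar1), in place of 0. Of 87 log2 fold changes recomputed for APP_WT versus WT, 86 kept direction and call, and the exception was C3ar1 fitted alone and without a dye term (adjusted p = 0.0759 in limma). The replicate numbers do not mark a shared animal or day in the labels, and residuals of same-numbered arrays correlated at 0.423 to 0.432 between BK_APP and HOE_APP and at −0.507 to −0.206 with APP_WT versus WT. The replicate block called 6 receptors in APP_WT versus WT and 0 in the others, and 4170 probes in place of 5446. SAM with rank products called 3526 probes in APP_WT versus WT, and the comparison fitted alone 1834 without and 2371 with a dye term.

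Signs changed for values that limma did not call. For C5ar1 in BK_APP the log2 fold change became −0.014 without background correction and −0.025 with the processed signals, and without single arrays it ran from −0.038 to 0.10. For C3ar1 it ran from −0.0024 to 0.041 in BK_APP and from −0.089 to 0.0012 in HOE_APP without single arrays. For C5ar1 it ran from −0.096 to 0.17 in HOE_APP, and the difference between BK_APP and HOE_APP from −0.14 to 0.13, with 0.016 under median centering. The cause of these changes was not tested. With HOE_APP read in the opposite direction, which turns its signs by construction, its log2 fold changes became 0.22 for Gpr84 (whose −0.22 SAM with rank products called), 0.080 for Gpr65, 0.044 for C3ar1, −0.037 for C5ar1, −0.034 for Fpr1 and 0.075 for P2ry6, and the difference −0.0065 for Gpr84, −0.023 for Gpr65, −0.024 for C3ar1 and 0.068 for C5ar1. An offset of 10 was chosen after seeing the data. Signals near background limit what the ratios of Ccr1, Ptafr and Fpr2 can show.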
